A study of Mus musculus with 12 samples.

Results

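Dbn1, Art5 and Otulin were followed through the left ventricles of 12 mice, as 3 of the 18079 genes with a deposited expression value. They were chosen by measured values, because their difference between aortic banding (AB) and sham surgery was among the most consistent from mouse to mouse, so their banding differences are given as a description with no test. Whether the choice used the mice given hispidulin was not stated, and the banding differences in both drug arms are treated as used. There were 4 groups of 3 male mice, of strain C57BL/6 in the labels and C57BL/6J in the methods, named by injection and surgery, with DMSO+Sham and Hispidulin+Sham as the sham groups and DMSO+AB and Hispidulin+AB as the banded ones. Hispidulin, a plant flavonoid, was given into the peritoneum at 20 mg/kg/day, or DMSO, its vehicle, in its place, starting 1 day before the operation. The labels give an age of 8 weeks at surgery and 12 weeks at harvest, 4 weeks later, and each mouse gave 1 library of polyadenylated RNA. All 4 groups thus shared an operation and daily injections, and the labels name no transgene or deletion.

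Dbn1 encodes drebrin, a protein that binds actin filaments and shapes the cell cortex and cell contacts, and that is best known from the dendritic spines of neurons. Otulin encodes a deubiquitinase that takes apart linear (Met1-linked) ubiquitin chains, which the ligase complex LUBAC builds at inflammatory receptors on the way to NF-kappaB. Art5 belongs to the mono-ADP-ribosyltransferases, enzymes that move ADP-ribose from NAD onto proteins outside the cell. AB narrows the aorta, raises the load on the left ventricle and leads to hypertrophy, with a return of fetal genes such as those of the natriuretic peptides.

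The 250 bases before the RefSeq start of each gene (GRCm38.p6) are shown so that the promoters of the 3 genes can be compared. The genes were grouped by the consistency of their AB difference and not by a common direction. Capitals mark matches on either strand to the MCAT element (CATTCC, bound by TEAD factors in cardiac muscle genes) and to the GC box (GGGCGG, bound by Sp1 and related factors), and the marked matches do not overlap.
Dbn1 (chr13:55488077-55488326, minus strand): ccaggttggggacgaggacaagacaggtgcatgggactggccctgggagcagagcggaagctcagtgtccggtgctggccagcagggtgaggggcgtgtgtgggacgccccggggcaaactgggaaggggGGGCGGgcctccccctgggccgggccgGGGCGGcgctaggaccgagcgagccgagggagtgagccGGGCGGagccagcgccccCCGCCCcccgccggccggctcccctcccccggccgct
Otulin (chr15:27630694-27630943, minus strand): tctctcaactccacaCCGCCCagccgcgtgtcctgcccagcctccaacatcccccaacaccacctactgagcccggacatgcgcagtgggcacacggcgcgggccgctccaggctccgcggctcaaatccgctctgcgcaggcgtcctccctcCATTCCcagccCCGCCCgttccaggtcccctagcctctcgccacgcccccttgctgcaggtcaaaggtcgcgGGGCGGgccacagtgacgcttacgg
Art5 (chr7:102100230-102100479, minus strand): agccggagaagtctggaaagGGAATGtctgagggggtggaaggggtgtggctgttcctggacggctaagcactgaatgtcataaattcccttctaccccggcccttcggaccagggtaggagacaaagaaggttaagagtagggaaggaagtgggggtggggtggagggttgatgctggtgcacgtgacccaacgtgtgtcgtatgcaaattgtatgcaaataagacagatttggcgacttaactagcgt
The windows of Dbn1 and Otulin were rich in G and C, at 77.2% and 69.6%, and held 23 CpG each, whereas that of Art5 had 52.8% and 9 CpG. Among 32851 RefSeq promoter windows, 97.4% had a lower share of G and C than Dbn1, 90.2% a lower share than Otulin and 51.1% a lower share than Art5. Dbn1 held 4 GC boxes and Otulin held 3, and 32.7% of all windows hold at least 1. Art5 and Otulin each held 1 MCAT match, an element found in 12.6% of all windows. Dbn1 and Art5 also had 1 E box each (CANNTG, in 66.2% of windows). No window had CCAAT (33.8% of windows), TATAAA (12.4%) or AGATAA (9.99%). No motif of the 6 searched was common to the 3 windows. A match is a run of letters and not a measured binding site.

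The files give FPKM, a read count scaled by transcript length and by library size, without the counts, so the depth is unknown and no counting error can be given. FPKM summed to between 535235 and 567027 a mouse, and Spearman correlations across genes within a group were 0.968 to 0.986. Replicate 3 of DMSO+Sham stood apart, with the lowest of those correlations (to replicate 2 of its group) and 2741 FPKM of the cardiac actin Actc1 against 7909 to 11562 in the other mice. Differences are from limma on log2(FPKM + 1) over the 11664 genes with at least 1 FPKM in at least 3 mice, a scale that understates the fold of low genes. A gene was called at an adjusted p under 0.05. The 3 genes passed the filter with at least 1 FPKM in every one of the 12 mice, so none entered through its higher groups alone.

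Dbn1 was expressed at a low level in sham hearts and, in DMSO mice, was about 4 times as high after AB. It measured 2.66, 4.39 and 4.64 FPKM in the DMSO+Sham mice and 14.59, 17.22 and 16.79 in the DMSO+AB mice. In mice given hispidulin it measured 3.41, 3.55 and 4.68 FPKM after sham surgery and 10.08, 8.93 and 11.21 after AB. The 4 groups fell into 3 levels, with the sham groups overlapping, Hispidulin+AB above both and DMSO+AB above Hispidulin+AB. Group means were 3.90 ± 1.08 FPKM (SD, n = 3) in DMSO+Sham and 3.88 ± 0.696 in Hispidulin+Sham, and after AB 16.2 ± 1.41 under DMSO and 10.07 ± 1.14 under hispidulin. The ratio of mean FPKM was 4.16 for DMSO+AB over DMSO+Sham and 2.60 in the hispidulin arm. On the log2(FPKM + 1) scale the AB difference was 1.83 (SE 0.169, 95% interval 1.47 to 2.2) under DMSO and 1.19 (interval 0.82 to 1.55) under hispidulin. Adding 0.1 in place of 1 before the logarithm gave 2.06 under DMSO.

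Otulin started from a higher level and was about 2 times as high after AB. The DMSO+Sham mice had 22.81, 20.95 and 29.09 FPKM and the DMSO+AB mice 44.27, 50.25 and 52.50. The Hispidulin+Sham mice had 19.63, 19.93 and 23.75 FPKM and the Hispidulin+AB mice 38.73, 38.17 and 38.83. The order of the groups was that of Dbn1, with overlapping sham groups, then Hispidulin+AB and then DMSO+AB, and the Hispidulin+AB mice lay closest together, with a coefficient of variation of 0.922%. Means were 24.28 ± 4.27 FPKM in DMSO+Sham, 21.1 ± 2.30 in Hispidulin+Sham, and after AB 49.01 ± 4.25 under DMSO and 38.58 ± 0.356 under hispidulin. The AB difference was 0.99 (SE 0.126, interval 0.72 to 1.27) under DMSO and 0.84 (interval 0.57 to 1.12) under hispidulin, that is, ratios of mean FPKM of 2.02 and 1.83.

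Art5 moved the other way and was lower after AB. It measured 23.99, 10.68 and 21.35 FPKM in the DMSO+Sham mice and 4.84, 5.01 and 6.04 in the DMSO+AB mice. The Hispidulin+Sham mice had 12.09, 10.82 and 13.10 FPKM, and the Hispidulin+AB mice 7.99, 9.74 and 6.09. DMSO+Sham was the most variable group of the 3 genes, with a coefficient of variation of 37.7%, and its replicate 2 sat at the level of the Hispidulin+Sham mice. Means were 18.67 ± 7.05 FPKM in DMSO+Sham, 12.0 ± 1.14 in Hispidulin+Sham, and after AB 5.30 ± 0.649 under DMSO and 7.94 ± 1.83 under hispidulin. The AB difference was -1.57 (SE 0.245, interval -2.11 to -1.04) under DMSO and -0.56 (interval -1.09 to -0.02) under hispidulin, that is, ratios of mean FPKM of 0.284 and 0.661. Without replicate 2 of DMSO+Sham the first value was -1.91, and without replicate 1 it was -1.36.

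**Figure D1:**
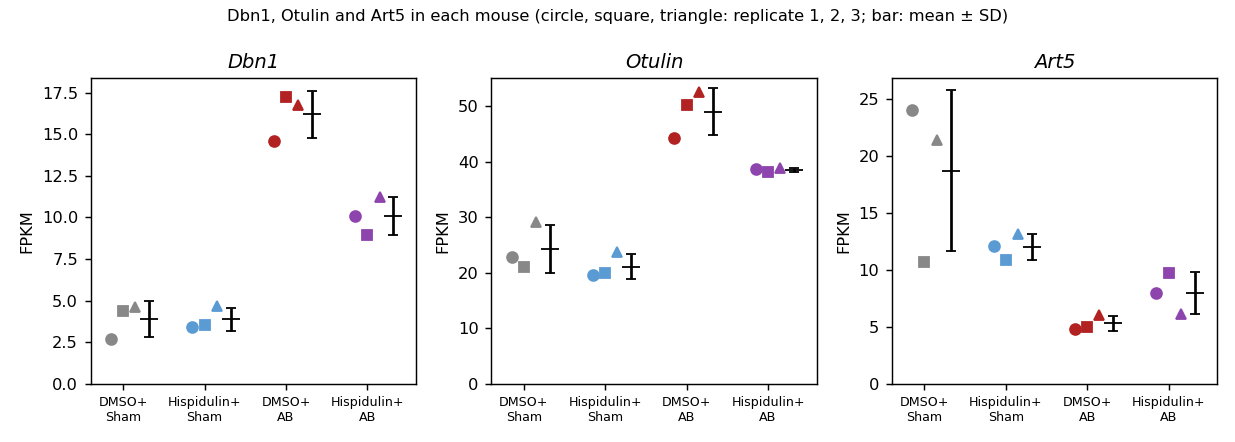
FPKM of Dbn1, Otulin and Art5 in each mouse (y axis, linear and starting at 0) for the 4 groups (x axis), where circle, square and triangle are replicates 1, 2 and 3 and the bar is the mean ± SD (n = 3). Dbn1 and Otulin are higher in every AB mouse than in every sham mouse, and Art5 is lower.

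The plot of FPKM by mouse shows the 6 AB mice apart from the 6 sham mice for each of the 3 genes. Groups that do not overlap in this way were found in 4.96% of all genes tested, and this property is close to what the genes were chosen for. In the DMSO arm alone 17.9% of genes did not overlap between AB and sham, and in the hispidulin arm 20.9%. The empty span between AB and sham mice of both arms was 0.81 on the log2 scale for Dbn1, 0.38 for Otulin and 0.12 for Art5. Art5 was thus the gene with the least room, with its highest AB mouse at 9.74 FPKM (Hispidulin+AB replicate 2) and its lowest sham mouse at 10.68 (DMSO+Sham replicate 2).

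Consistency and size ranked the genes differently. By the absolute moderated t of limma, which divides the difference by its error, Dbn1 was 1st of 11664 genes in the DMSO arm, Otulin 12th and Art5 45th. By the absolute difference they were 43rd, 248th and 69th. In the hispidulin arm Dbn1 was 1st, Otulin 3rd and Art5 731st by moderated t. The error of a gene is the same in both arms, since it comes from 1 model of all mice, and the genes were chosen for such consistency, so the ranks are a description. Genes between Dbn1 and Otulin in the DMSO arm included the fetal skeletal actin Acta1, the natriuretic peptide gene Nppb and the actin-associated muscle genes Synpo2l and Xirp2. These neighbours in rank were named after their values were seen.

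**Figure D2:**
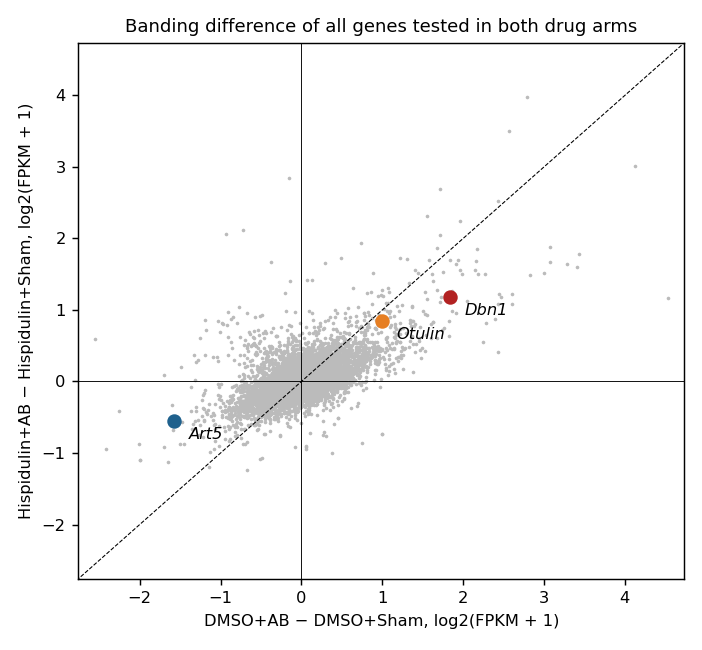
Each point is 1 of the 11664 genes tested, with its AB minus sham difference in log2(FPKM + 1) under DMSO on the x axis and under hispidulin on the y axis, and a dashed line of equal differences. Dbn1 (1.83 and 1.19), Otulin (0.99 and 0.84) and Art5 (-1.57 and -0.56) keep their direction in both arms and lie nearer to 0 under hispidulin.

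The plot of both arms places the 3 genes outside the bulk of all genes on the DMSO axis. All genes tested had a median AB difference of -0.04 under DMSO and -0.02 under hispidulin. In the DMSO arm 5.21% of genes were called, 2.50% higher and 2.71% lower after AB. Nothing about the 3 genes is read from this share, since that contrast is treated as used in choosing them. In the hispidulin arm 0% of genes passed, the unadjusted p was under 0.05 in 847 and the smallest adjusted p of limma was 0.0857. With the replicate number as a block, whose same-numbered mice deviated together in that arm, 17 genes passed there. The 608 genes called under DMSO became 91 without DMSO+Sham replicate 1, 104 without DMSO+AB replicate 2, 190 without DMSO+AB replicate 3, 953 without DMSO+AB replicate 1 and 1050 without DMSO+Sham replicate 2.

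Whether hispidulin changed the 3 genes after AB is a contrast the choice did not name, but it shares its mice with the banding differences. A choice made in the DMSO arm favours a difference opposite in sign to the banding difference. A choice made in the hispidulin arm favours the same sign, and which arm was used was not stated. Among the AB mice Dbn1 was lower with hispidulin than with DMSO (log2 difference -0.64, interval -1.01 to -0.27, ratio of mean FPKM 0.622). The unadjusted p of limma was 0.00268 and the adjusted p 0.996, so the gene did not pass. Both AB groups enter banding differences treated as used, so the p-values of the 3 genes here are a description. Otulin differed by -0.33 (interval -0.61 to -0.06, unadjusted p = 0.021 and adjusted p = 0.996 from limma). Art5 differed by 0.49 (interval -0.04 to 1.02, unadjusted p = 0.0689 and adjusted p = 0.996 from limma). In each gene the 3 Hispidulin+AB mice lay on the sham side of the 3 DMSO+AB mice, though for Art5 the gap was 6.04 against 6.09 FPKM. Of all genes tested, 7.88% did not overlap between these groups, in either direction and whatever the side of the sham mice. By limma 0% of genes passed in this contrast, the unadjusted p was under 0.05 in 362, and 20 genes passed when DMSO+AB replicate 1 was left out.

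In sham hearts none of the 3 genes passed between the drug groups. Both sham groups enter banding differences treated as used, so the p-values of the 3 genes here are a description too. A choice in the DMSO arm favours a lower Art5 and a higher Dbn1 and Otulin with hispidulin here. A choice in the hispidulin arm favours the reverse. Art5 was 12.0 FPKM in Hispidulin+Sham against 18.67 in DMSO+Sham (difference -0.53, interval -1.06 to 0.01, adjusted p = 1 from limma). Otulin differed by -0.19 (interval -0.46 to 0.09) and Dbn1 by 0.01 (interval -0.36 to 0.38), each with an adjusted p of 1. Single mice moved these values, that of Art5 to -0.32 without DMSO+Sham replicate 1 and -0.87 without DMSO+Sham replicate 2, and that of Otulin to -0.05 without DMSO+Sham replicate 3 and -0.28 without DMSO+Sham replicate 2. With the code series as a covariate Art5 differed by -0.27. Within the series of 2 Hispidulin+Sham mice against 1 DMSO+Sham mouse the differences were 0.09 for Art5, -0.08 for Otulin and -0.27 for Dbn1, and within that of 1 against 1 they were -0.67, -0.28 and 0.01, so the direction for Art5 and Dbn1 was not the same in both. The sign for Dbn1 turned to -0.19 without DMSO+Sham replicate 1 and to -0.10 without Hispidulin+Sham replicate 3, so no direction is given for it. The sham groups overlapped for all 3 genes, and 5.60% of genes tested did not overlap there. By limma 0% of genes passed between the sham groups, where the unadjusted p was under 0.05 in 287.

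The interaction asks whether the AB difference itself differed between the drug arms. It was 1.02 for Art5 (SE 0.347), -0.65 for Dbn1 (SE 0.239) and -0.15 for Otulin (SE 0.178). These values are the difference of the banding differences treated as used in the choice, and are a description with no test. With 1 library left out the interaction ranged from 0.81 to 1.36 for Art5, from -0.76 to -0.45 for Dbn1 and from -0.28 (without DMSO+Sham replicate 3) to -0.05 (without DMSO+Sham replicate 2) for Otulin. For each gene the sign is that of a smaller AB difference under hispidulin. A choice of the genes in the DMSO arm would lean the same way, and a choice in the hispidulin arm the other way. For Art5 the value combined a higher level in Hispidulin+AB and a lower level in Hispidulin+Sham, each against the DMSO group. For Dbn1 nearly the whole of it lay in the AB groups. By limma 0% of genes passed for the interaction, the unadjusted p was under 0.05 in 289, and 3 passed without DMSO+AB replicate 1.

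**Figure D3:**
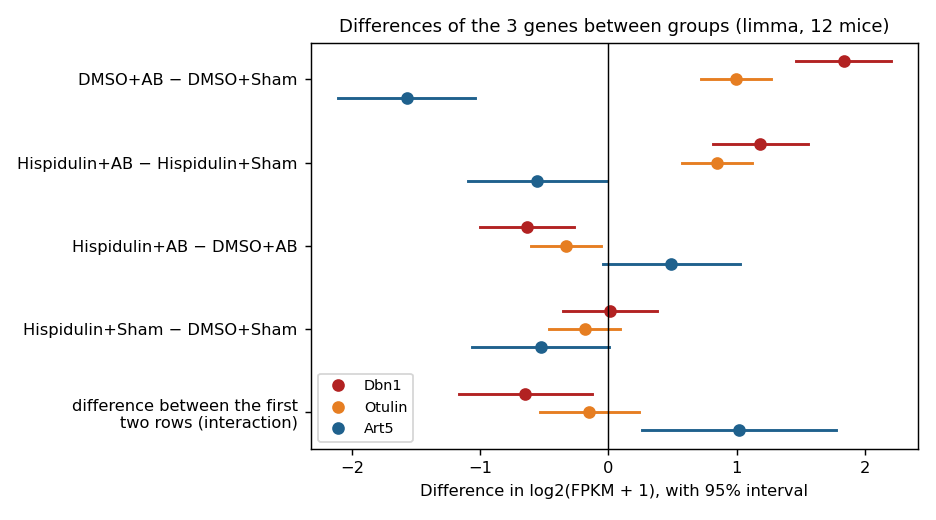
Differences of Dbn1, Otulin and Art5 between groups in log2(FPKM + 1) (x axis) with their 95% intervals from limma, 1 row per contrast. The AB differences (top rows) are treated as used in choosing the genes and are shown as a description. The hispidulin differences after AB (-0.64 for Dbn1, -0.33 for Otulin and 0.49 for Art5) have the opposite sign.

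The plot of the differences shows the intervals of Art5 as the widest of the 3 in every contrast. Leaving out DMSO+Sham replicate 3, the mouse that stood apart, gave AB differences under DMSO of 1.95 for Dbn1, 1.13 for Otulin and -1.45 for Art5. The codes of the samples carry numbers of separate series, and neither the labels nor the methods say whether these mark a batch. DMSO+Sham replicate 1 belongs to neither of the series compared and is left out of the values within them. Within the series of 2 mice against 2, Hispidulin+AB differed from DMSO+AB by -0.68 for Dbn1, -0.29 for Otulin and 0.73 for Art5. Within the other series, of 1 mouse against 1, the differences were -0.54, -0.43 and 0.01. The AB difference kept its sign in both series for each gene, from 0.89 to 1.72 for Dbn1, from 0.67 to 1.28 for Otulin and from -1.92 to -0.52 for Art5, over both drug arms.

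Over the 12 mice, Dbn1 and Otulin varied together (Pearson r = 0.964), and Art5 opposed both (r = -0.875 with Dbn1 and -0.725 with Otulin). These values largely restate the group means, since all 3 genes were chosen to differ by surgery and the points share their libraries. After the group means were removed, r was 0.551 for Dbn1 and Otulin, -0.411 for Dbn1 and Art5, and 0.516 for Art5 and Otulin. Art5 and Otulin were thus opposite over the 12 mice, while their r pooled within groups was positive. That value was not tested and did not hold in every group. In Hispidulin+AB the mouse with the highest Art5 (9.74 FPKM) had the lowest Otulin (38.17), and the mouse with the lowest Art5 (6.09) the highest Otulin (38.83). DMSO+Sham replicate 3 and Hispidulin+Sham replicate 3 had the highest Dbn1 and Otulin of their groups.

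The genes whose pattern over the 12 mice was most like that of Dbn1 were Meox1 (r = 0.978), a homeobox gene known from activated fibroblasts, the gene with identifier 101056102 and no symbol in the table used (0.968), the beta-tubulin gene Tubb2a (0.968), Pmepa1 (0.966) and Ankrd1 (0.965), a stretch-responsive cardiac ankyrin repeat gene. Mean FPKM of Meox1 was 5.43 in DMSO+Sham, 5.39 in Hispidulin+Sham, and after AB 22.2 under DMSO and 14.3 under hispidulin, in each group above those of Dbn1. The genes least like Dbn1 were Myo5c (-0.975), Asb14 (-0.971) and Usp54 (-0.963). For Otulin the highest were Plekho1 (0.969), Dbn1 (0.964), Fstl3 (0.959), which encodes a secreted activin inhibitor, Galns (0.955), a lysosomal sulfatase, and Hspb7 (0.955), a small heat shock protein of heart and muscle. The lowest were Cd28 (-0.978), Cryz (-0.976) and Myo5c (-0.961), so Myo5c stood among the lowest for both genes. Cd28, a T cell costimulator, had a group mean of at most 1.49 FPKM, and little is read from it.

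None of the genes most like Dbn1 or Otulin was among those most like Art5. This follows from the opposite course of Art5 (r = -0.875 with Dbn1 and -0.725 with Otulin), and nothing more is read from it. For Art5 the highest were Pex6 (r = 0.959), a peroxisomal import ATPase, the purine synthesis gene Pfas (0.951), Cnot10 (0.950), Gstm2 (0.950), a glutathione transferase, and Got1 (0.949), the cytosolic aspartate aminotransferase. The lowest were the immediate early gene Ier5 (-0.954), Nppb (-0.950), which encodes B-type natriuretic peptide, and Eef1e1 (-0.936). Nppb had mean FPKM of 207 in DMSO+Sham, 287 in Hispidulin+Sham, and after AB 1540 under DMSO and 1050 under hispidulin, the reverse order of Art5. Within groups r between Art5 and Nppb was -0.823 and between Art5 and Ier5 -0.939, values that form part of the correlation these genes were picked on.

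For context, 4 of the 5 hypertrophy genes listed were called higher after AB under DMSO, where 2.50% of all genes were. These were Nppa, Nppb, Acta1 and Ankrd1, and Myh7, the beta myosin heavy chain, differed by 1.55 (SE 0.621, adjusted p = 0.182 from limma). The count was 3 without any 1 of DMSO+Sham replicate 1, DMSO+AB replicate 2 and DMSO+AB replicate 3. Under hispidulin 0 of the 5 were called, as were 0% of all genes. The count was 2 of 17 genes called with the replicate block, 4 of 209 with library weights and 4 of 51 with only the libraries compared. Their median difference was 3.08 under DMSO, against 1.83 for Dbn1 and 0.99 for Otulin.

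The relatives of Dbn1 that share its actin-depolymerizing factor homology (ADF-H) domain are known to act on actin filaments. Of the 9 tested, 0 were called under DMSO, near the share of all genes (5.21%), 8 had a positive difference and the median was 0.11, against -0.04 over all genes. The cofilins Cfl2 and Cfl1, which sever actin filaments, differed by 0.48 (SE 0.132, adjusted p = 0.0576 from limma) and 0.43 (SE 0.159, adjusted p = 0.146), and Twf1 by 0.33 and Dbnl by 0.25. One of the 9 was called when DMSO+Sham replicate 2 was left out. Dbnl (drebrin-like) measured 14.6 ± 2.43 FPKM in DMSO+Sham and 17.7 ± 4.45 in DMSO+AB, so the FPKM of Dbn1 went from 0.266 of that of Dbnl to 0.946 of it.

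Among proteins known to bind drebrin or to act with it at actin, 1 of 13 tested was called, a share near the 5.21% of all genes. Homer2, a scaffold of synapses and muscle, rose by 0.55 (SE 0.142, adjusted p = 0.0467 from limma), from 9.33 ± 2.14 to 13.9 ± 0.741 FPKM. The call held in 4 of 14 alternatives, over which its adjusted p ranged from 0.0143 to 0.253. It was lost with the replicate block, with no filter, with median-of-ratios scaling, with the code series, with only the libraries compared, and without DMSO+Sham replicate 1 or 3 or any 1 of the DMSO+AB mice. The largest other differences were 0.71 for the actin bundler Fscn1 (SE 0.274, adjusted p = 0.167), 0.55 for the actinin Actn1 (SE 0.177, adjusted p = 0.102) and -0.45 for Gja1 (SE 0.239, adjusted p = 0.316), the connexin of ventricular gap junctions. The list median was 0.28, and 2 genes were called without DMSO+Sham replicate 2.

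Of the enzymes that attach, remove or compete for ADP-ribose, 4 of 12 tested were called, 2 in each direction, where 5.21% of all genes were called, and the list median was 0.02. Adprhl1, a heart-expressed relative of the ADP-ribosylhydrolases, rose from 350 ± 42.9 to 511 ± 64.7 FPKM (difference 0.55, adjusted p = 0.0266 from limma). Enpp1, an ectoenzyme that cleaves nucleotides, rose from 0.977 ± 0.105 to 2.70 ± 1.21 FPKM (0.85, adjusted p = 0.0305). Art4, a member of the family of Art5, fell from 10.5 ± 1.13 to 6.04 ± 1.58 FPKM (difference -0.73, adjusted p = 0.0267), and Oard1, a deacylase of acyl-ADP-ribose, from 18.4 ± 0.959 to 11.8 ± 2.58 (difference -0.61, adjusted p = 0.0368). The count of 4 became 0 without DMSO+Sham replicate 1 or DMSO+AB replicate 3, and 1 without DMSO+Sham replicate 3 or DMSO+AB replicate 2. Over all alternatives the call held in 9 of 14 for Adprhl1, 9 of 14 for Art4, 7 of 14 for Oard1 and 6 of 13 for Enpp1. Their adjusted p of limma reached 0.171, 0.178, 0.207 and 0.205 in the same order.

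Art1 and Art3, the other transferases with high levels here, were far more abundant than Art5, while Art4 was not, a comparison chosen after the values were seen. Art3 measured 283 ± 79.2 FPKM in DMSO+Sham and 207 ± 14.9 in DMSO+AB (difference -0.41, SE 0.177, adjusted p = 0.215 from limma), and Art1 168 ± 18.9 and 129 ± 25.1 (difference -0.39, SE 0.151, adjusted p = 0.163). Art1, Art3 and Art4 were each lower on average after AB under DMSO, and of these only Art4 was called. The median over all genes was negative as well (-0.04), and Art5 was chosen on its change. No fall of the family is read from these values. The FPKM of Art5 was 0.109 ± 0.0316 of that of Art1 in DMSO+Sham, 0.0909 ± 0.0151 in Hispidulin+Sham, and after AB 0.0418 ± 0.00602 under DMSO and 0.069 ± 0.00998 under hispidulin. The ratio was lower in each DMSO+AB mouse (0.0363 to 0.0482) than in each sham mouse (0.0725 to 0.13), while in Hispidulin+AB it reached 0.0759 and overlapped the sham mice.

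Of the 27 tested genes of the linear ubiquitin machinery around Otulin, 0 were called, where 5.21% of all genes were. Of these, 9 had a positive and 18 a negative difference, and the median was -0.06. Under hispidulin 18 had a positive and 9 a negative difference, and the median was 0.05. The LUBAC subunits measured -0.56 for Rnf31 under DMSO (HOIP, the catalytic subunit, SE 0.227, adjusted p = 0.19 from limma) and 0.08 under hispidulin, and under DMSO -0.01 for Rbck1 (HOIL-1) and 0.03 for Sharpin. Rnf31 measured 13.6 ± 5.75 FPKM in DMSO+Sham and 8.43 ± 0.675 in DMSO+AB. Its highest value, 20 FPKM, was that of DMSO+Sham replicate 3, the mouse that stood apart. These subunits and Cyld are named for their role, after their values were seen. Cyld, the other deubiquitinase of linear chains, differed by -0.24 (SE 0.168, adjusted p = 0.453), and Tnip1, which binds linear chains, by 0.54 (SE 0.173, adjusted p = 0.0988). The further large differences were -0.49 for Nfkbia, the inhibitor of NF-kappaB, and -0.45 for the ligase Birc2, neither of which passed. One gene was called without any 1 of DMSO+Sham replicate 2, DMSO+Sham replicate 3 and DMSO+AB replicate 1.

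Set against its partners in the same mouse, Otulin was higher after AB in both arms. The ratio of its FPKM to that of Rnf31 was 1.91 ± 0.443 in DMSO+Sham, 2.21 ± 0.471 in Hispidulin+Sham, and after AB 5.84 ± 0.629 under DMSO and 3.83 ± 0.739 under hispidulin. The ratio to Cyld was 3.63 ± 0.442, 3.58 ± 0.15, 9.07 ± 2.06 and 6.55 ± 0.386 in the same order. In neither ratio did an AB mouse overlap a sham mouse, with AB mice from 3.00 to 6.49 and sham mice from 1.45 to 2.75 for Rnf31. These ratios, like those for Art5 and Dbn1, were picked after the values were seen and hold the members' own banding difference, so no test was made.

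**Figure D4:**
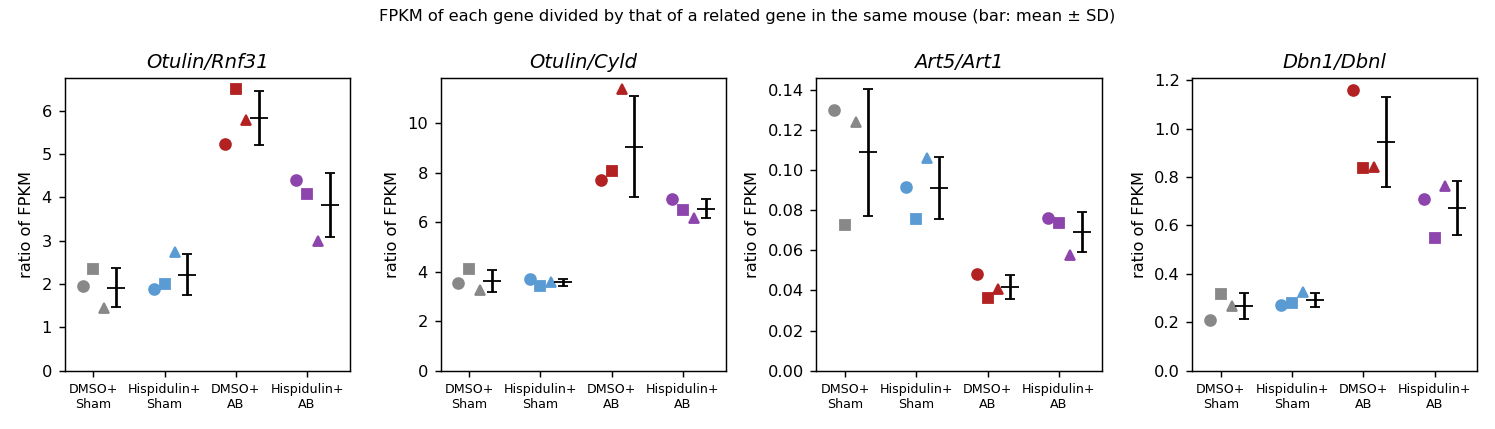
Ratio of the FPKM of Otulin to Rnf31 and Cyld, of Art5 to Art1 and of Dbn1 to Dbnl in each mouse (y axis, starting at 0) for the 4 groups, with symbols for replicates 1, 2 and 3 and the mean ± SD (n = 3). The ratios of Otulin and Dbn1 are higher in every AB mouse than in every sham mouse, and that of Art5 to Art1 is lowest in DMSO+AB (mean 0.0418).

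The plot of the ratios shows DMSO+AB as the extreme group in each of the 4 panels. For Dbn1 over Dbnl the means were 0.266 ± 0.0541 in DMSO+Sham, 0.292 ± 0.0279 in Hispidulin+Sham, and after AB 0.946 ± 0.185 under DMSO and 0.673 ± 0.11 under hispidulin. The highest sham mouse had 0.324 and the lowest AB mouse 0.549.

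The ovarian tumour (OTU) family of deubiquitinases, to which Otulin belongs, had 0 of 12 tested genes called, near the 5.21% of all genes, and a median of 0.03. Otud1 had the largest difference, 1.96, with a large error (SE 0.759, adjusted p = 0.167 from limma), and its mice ranged from 8.63 to 196.55 FPKM. The next were -0.38 for Otud4, 0.32 for Otub1 and -0.26 for Otud7b. Otulinl, the sister gene of Otulin, was at 0.76 ± 0.325 FPKM in DMSO+Sham and 1.37 ± 0.558 in DMSO+AB (difference 0.42, SE 0.194, adjusted p = 0.249), far below Otulin itself. One OTU gene was called without DMSO+Sham replicate 2. In Hispidulin+AB against DMSO+AB and against Hispidulin+Sham 0% of all genes were called, so the 0 calls in the pathway lists say nothing particular about them. Library weights called 1 drebrin partner, 1 ADP-ribose gene and 1 OTU gene in the hispidulin arm, among 209 genes in all.

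**Figure D5:**
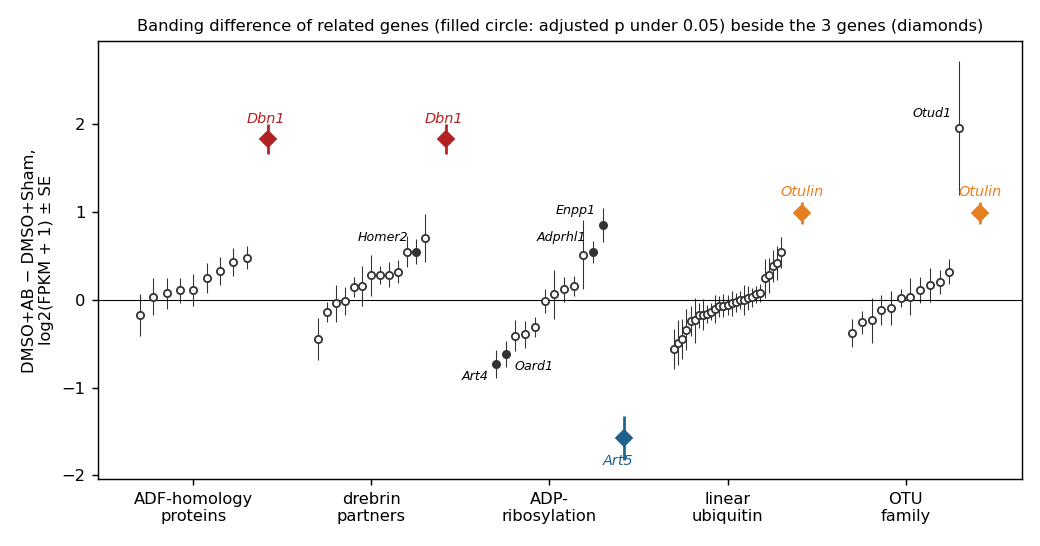
DMSO+AB minus DMSO+Sham difference in log2(FPKM + 1) ± SE (y axis) of each tested gene of 5 related lists (x axis), filled where called, beside Dbn1, Art5 and Otulin as diamonds. The 5 called genes are Homer2, Enpp1, Adprhl1, Art4 and Oard1, and only Otud1 (1.96) exceeds Dbn1 (1.83) in the lists shown.

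The plot of related genes sets the 3 genes beside their lists. This contrast is treated as used in choosing the 3 and not in choosing the list genes, so nothing is read from their standing apart. Of the neighbours of the 3 genes on the chromosome, read from the RefSeq table, 0 of 11 tested were called under DMSO, near the 5.21% of all genes. Next to Dbn1 on chromosome 13, Prr7 differed by 0.53 (adjusted p = 0.0968 from limma), Pdlim7 by 0.44 (adjusted p = 0.21), Grk6 by -0.05 and Dok3 by -0.03. Next to Art5 on chromosome 7, Art1 differed by -0.39, Chrna10 by -0.66 (adjusted p = 0.0677) and Xndc1 by -0.11, and Trpc2 was below the filter. Next to Otulin on chromosome 15, Otulinl differed by 0.42, Trio by -0.12, Ank by -0.05 and Fbxl7 by 0.05. Whether the libraries kept strand was not given in the sources used here, so reads of genes that overlap on opposite strands cannot be told apart.

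The counts of markers called below stand beside 5.21% of all genes called between DMSO+AB and DMSO+Sham, 2.50% higher and 2.71% lower. In these pieces of ventricle, fewer cells of a type and less RNA per cell cannot be told apart. Markers of cardiomyocytes summed to 38800 to 56400 FPKM in DMSO+Sham and 45800 to 50800 in DMSO+AB, and were the most abundant of the lists read. Of these 8 markers 2 were higher and 6 lower on average under DMSO (median difference -0.27), and the 2 called, Pln (-0.62) and Ryr2 (-0.59), were lower after AB. Fibroblast markers, of which all 7 were higher on average and 2 were called higher in DMSO+AB than in DMSO+Sham, summed to 363 to 446 FPKM in DMSO+Sham, 375 to 500 in Hispidulin+Sham, and after AB 392 to 757 under DMSO and 405 to 578 under hispidulin. The 4 neuron markers summed to 0.74 to 1.87 FPKM in DMSO+Sham and 1.56 to 2.80 in DMSO+AB. Of these, Rbfox3 and Snap25 reached at most 0.05 and 0.04 FPKM in any mouse, Map2 0.8 and Tubb3 2.07, and Tubb3 differed by 0.74 after AB under DMSO (adjusted p = 0.0932 from limma). Of the other lists, 0 of the 3 atrial, 5 endothelial, 6 mural, 5 macrophage and 3 erythroid markers tested were called. Atrial markers summed to 774 FPKM in 1 Hispidulin+Sham mouse, replicate 3, against at most 172 in the other mice. That mouse had the highest value of Dbn1, Art5 and Otulin in its group. The part of these markers in the differences of the 3 genes was not tested.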

How the data were processed

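Left ventricular RNA of 12 mice was sequenced by the authors as single-end reads of 50 bases on a BGISEQ-500, and the values they deposited are FPKM per gene and mouse, rounded to 0.01. The submitters' processing notes name HISAT2 2.0.4, Bowtie2 2.2.5, RSEM 1.2.12 and DESeq2 1.4.5 without their roles, and the genome build and annotation were not given in the sources used here. Depth is unknown, and no counts were used. Groups and replicate numbers were taken from the sample titles. The labels give an age of 8 weeks at surgery and the paper 8 to 10 weeks.

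FPKM were used without rescaling. In R 4.3.3 with limma 3.58.1, log2(FPKM + 1) of all 12 libraries was modelled by the 4 group means (8 error degrees of freedom) in the 11664 genes that reached 1 FPKM in 3 or more libraries. Tests were two-sided, by eBayes with a mean-variance trend, and adjusted by the Benjamini-Hochberg method over all genes tested. Nothing says whether tissue pieces were pooled, and p-values measure the spread between these libraries. The fit was tested on simulated data. RefSeq symbols were found for 17947 of 18079 Gene IDs (99.3%), and Dbn1, Art5 and Otulin are 56320, 11875 and 432940. Of the list genes, Adprs was read as Adprhl2. Promoters were read with Python 3.11.15.

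The members, the lists and the tests were chosen with earlier results of these data known. Named genes were, beside the members, the 5 most and 3 least correlated with each, the 2 nearest on each side in the matrix, and of each list every gene that passed and up to 4 with the largest DMSO+AB against DMSO+Sham difference. Rbck1, Sharpin, Cyld, Art3, Myh7, genes named for their rank by moderated t and single markers fall outside this rule. Same-numbered replicates are different animals. Their residuals correlated by 0.147 to 0.228 in the hispidulin arm and 0.126 to 0.33 between sham groups, above 0.1 for each pair, but by -0.198 to -0.0239 in the DMSO arm and -0.183 to 0.3 between AB groups. Alternatives were another added value, other filters, median-of-ratios scaling, library weights, the code series as a covariate, the replicate block, only the libraries compared, and each library left out in turn.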

Additional observations from a re-analysis of the deposited data

How the results depend on the processing

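The differences of Dbn1, Art5 and Otulin kept their sign in every contrast under each alternative run, except that of Dbn1 between the sham groups (0.01), which was -0.18 with the code series as a covariate and ranged from -0.19 to 0.13 with 1 library left out (-0.19 without DMSO+Sham replicate 1 and -0.10 without Hispidulin+Sham replicate 3). The AB difference of Dbn1 under DMSO was 2.06 with 0.1 added and 2.12 with library weights. The adjusted p of limma stayed between 0.219 and 1 for Dbn1, 0.602 and 1 for Art5 and 0.301 and 1 for Otulin in Hispidulin+AB against DMSO+AB.

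Counts moved more, and the cause was not tested. The 608 genes called between DMSO+AB and DMSO+Sham were 383 with no filter, 1423 with library weights, 142 with the code series, 11 with only the libraries compared and 91 to 1050 with 1 library left out. In the same contrast ADF-H genes called were 1 with median-of-ratios scaling, 3 with weights, 1 with the replicate block and 0 to 1 with 1 left out. Drebrin partners were 0 with no filter, median-of-ratios scaling, the code series, the block or only the libraries compared, 4 with weights and 0 to 2 with 1 left out. ADP-ribose genes were 1 with no filter, 2 with the code series, 0 with only the libraries compared and 0 to 4 with 1 left out. Linear ubiquitin genes were 2 with weights and 0 to 1 with 1 left out, OTU genes 0 to 1 with 1 left out, and hypertrophy genes 2 with only the libraries compared and 3 to 5 with 1 left out.

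In the hispidulin arm, genes called were 2 with no filter, 2 with median-of-ratios scaling, 209 with weights, 17 with the replicate block, 51 with only the libraries compared and 0 to 3 with 1 left out. Hypertrophy genes there were 4 with weights, 2 with the block and 4 with only the libraries compared. Drebrin partners were 1 with weights and 1 with only the libraries compared, and ADP-ribose and OTU genes 1 each with weights. Between the AB groups 2 genes were called with no filter and 0 to 20 with 1 left out, and for the interaction 0 to 3 with 1 left out. Depth is unknown, which limits what can be said of low genes such as Otulinl and Enpp1. The replicate block changed no call of the 3 genes, whose estimates it leaves as they are.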
